A study of Mus musculus with 55 samples.

Results

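The transcripts described here are 10 genes that make, burn or take up fatty acids, followed in the lungs of mice that ate one of 2 diets, took up arsenic (As) for weeks or received a single injection. They were Fasn, Scd1, Acaca, Acly, Elovl6, Pdk4, Angptl4, Cpt1a, Lpl and Cd36, 10 of 18193 genes that the array names without ambiguity. A gene was read through every probe set annotated with its symbol alone, which gave 25 of 45037 probe sets, and the member's value is that of its brightest probe set, by the mean over all arrays. All 10 of these main probe sets passed a log2 level of 5 in at least 4 arrays, as did 18 of the 25. RNA of whole lung came from male C57BL/6 mice (C57BL/6J in the study's methods), 6 weeks old when they began 2 weeks of acclimation to their diet, and each mouse gave 1 Affymetrix mouse genome array. Mice on the LRD diet (LRD-5001) were unexposed controls (4 mice) or took up sodium arsenite for 5 weeks, in their food at 10 ppb (5 mice) or in drinking water, at 10 ppb (4 mice) and at 100 ppb (3 mice). The AIN-76A groups (AIN) matched these, with 5 control mice, 5 mice given As in food, and 4 and 3 mice given 10 ppb and 100 ppb by water. Single intraperitoneal injections on the AIN-76A diet held dexamethasone and arsenite (5 mice), dexamethasone (5 mice), arsenite (4 mice) or saline (5 mice), each agent at 1 mg/kg, with lungs taken after 8 hours. These numbers leave out 3 arrays of low quality, 1 each at 100 ppb in water on AIN, 10 ppb in water on LRD and arsenite injection.

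Cells make fatty acids in the cytosol from citrate. ATP citrate lyase (Acly) releases acetyl-CoA, acetyl-CoA carboxylase (Acaca) turns it into malonyl-CoA, fatty acid synthase (Fasn) builds palmitate, Elovl6 lengthens it and stearoyl-CoA desaturase (Scd1) adds a double bond. Carnitine palmitoyltransferase (Cpt1a) admits fatty acids to the mitochondrion and is blocked by malonyl-CoA, and pyruvate dehydrogenase kinase Pdk4 spares glucose when fat is burned. Lipoprotein lipase (Lpl) frees fatty acids from lipoproteins at the capillary wall, Angptl4 inhibits that enzyme, and Cd36 carries fatty acids into cells. In lung, alveolar type II cells use this machinery for surfactant lipids, and fat cells, which lie around the airways and in the mediastinum, use it for storage. Pdk4, Angptl4 and Lpl are known in several tissues to respond to fasting or glucocorticoids.

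Upstream sequence was matched by gene symbol for 7 of the 10 genes in RefSeq's promoter table (GRCm38.p6). Those of Fasn, Acly and Pdk4 are shown, since the first pair rose and fell together across arrays and Pdk4 varied apart from them. Each run holds the 150 bases before the transcript start used in that table, read 5′ to 3′ on the gene's own strand, with the letters CCAAT (the CCAAT box) or GGGCGG (the GC box) in capitals on either strand.
Fasn, chr11:120824548-120824697, minus strand: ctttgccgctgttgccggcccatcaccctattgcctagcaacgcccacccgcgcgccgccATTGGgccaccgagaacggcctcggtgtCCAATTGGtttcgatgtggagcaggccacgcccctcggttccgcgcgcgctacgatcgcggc
Acly, chr11:100528001-100528150, minus strand: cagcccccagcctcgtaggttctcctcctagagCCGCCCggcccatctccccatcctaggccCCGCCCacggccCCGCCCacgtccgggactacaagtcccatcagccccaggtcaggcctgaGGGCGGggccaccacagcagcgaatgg
Pdk4, chr6:5496279-5496428, minus strand: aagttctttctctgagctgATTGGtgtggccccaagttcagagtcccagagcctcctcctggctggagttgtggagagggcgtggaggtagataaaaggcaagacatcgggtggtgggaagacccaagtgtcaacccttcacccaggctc
The run of Fasn lies inside the annotated span of the gene, which reaches to base 120825166. The runs of Acaca, Cd36 and Cpt1a, not shown, also lie inside the annotated spans of their genes. That of Acaca is at 84195288-84195437 on chromosome 11, in a span of 84129635 to 84401651. The counts below include these genes. Fasn held CCAAT 3 times, at bases -90, -62 and -59 counted back from the start, the last pair overlapping in opposite directions. Acly held 4 GC boxes, and Pdk4 held 1 CCAAT box at base -131. Over the 250 bases before the start, CCAAT was found in 4 of the 7 genes against 33.85% of 32851 promoters, and GGGCGG in 3 of 7 against 32.74%. AGGTCA, a site of nuclear receptors, was in 4 of 7 (Elovl6, Cd36, Acly and Cpt1a), against 14.02% of promoters. TGTTCT, part of the palindrome bound by the glucocorticoid receptor, was in 1 of 7 (Acaca, whose run lies inside the gene), against 16.08%. TCACNCCAC, a core of the sterol regulatory element, and the E-box CACGTG were in 0 of the 7, against 1.05% and 6.02% of promoters. Both strands were searched, none of these motifs contains another, and a match of letters is not a binding site.

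Array medians ran from 4.25 to 4.37 on the log2 scale over the 52 arrays, and markers of alveolar type II cells averaged 11.70 to 12.79 in the AIN and LRD mice. Several lungs also held RNA of neighbouring tissue. The mean of 8 fat cell markers exceeded log2 6 in 10 of the 52 arrays. Adiponectin (Adipoq), the defining product of fat cells, read 9.68 to 12.52 in those 10 and 3.97 to 8.96 in the other 42. The highest fat marker means were 8.86 in saline replicate E and 8.48 in AIN 10 ppb water replicate A. Brown fat markers reached 11.37 in that AIN 10 ppb water replicate A and 9.09 in replicate E of the same group. Results are therefore given with and without those 2 mice. RNA was taken from whole lung, so a change in the share of a cell type and a change in RNA per cell cannot be told apart.

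The genes of fatty acid synthesis were high in a few single lungs of several groups. Fasn read 12.86 and 11.55 in AIN 10 ppb water replicates A and E, 11.83 and 11.26 in saline replicates E and D, and 11.74, 11.64 and 10.72 in dexamethasone replicates A, C and B. No other of the 52 arrays passed 10.44 for Fasn. The same 7 lungs were the highest 7 for Acaca and for Elovl6, and 6 of them were among the highest 7 for Scd1 and for Acly. All 7 were among the 10 lungs over log2 6 in fat markers. Elovl6 had the widest range of the synthesis genes, 5.10 to 11.12 over 52 arrays, and 5.10 to 6.90 over the 42 lungs low in fat markers. Scd1 spanned 12.33 to 13.97 over all arrays and 12.33 to 13.34 over those 42. The other 3 fat-marker lungs, LRD control replicates A and C and LRD 10 ppb food replicate C, read 9.97 to 10.25 for Fasn, within the range of the remaining lungs.

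**Figure D1:**
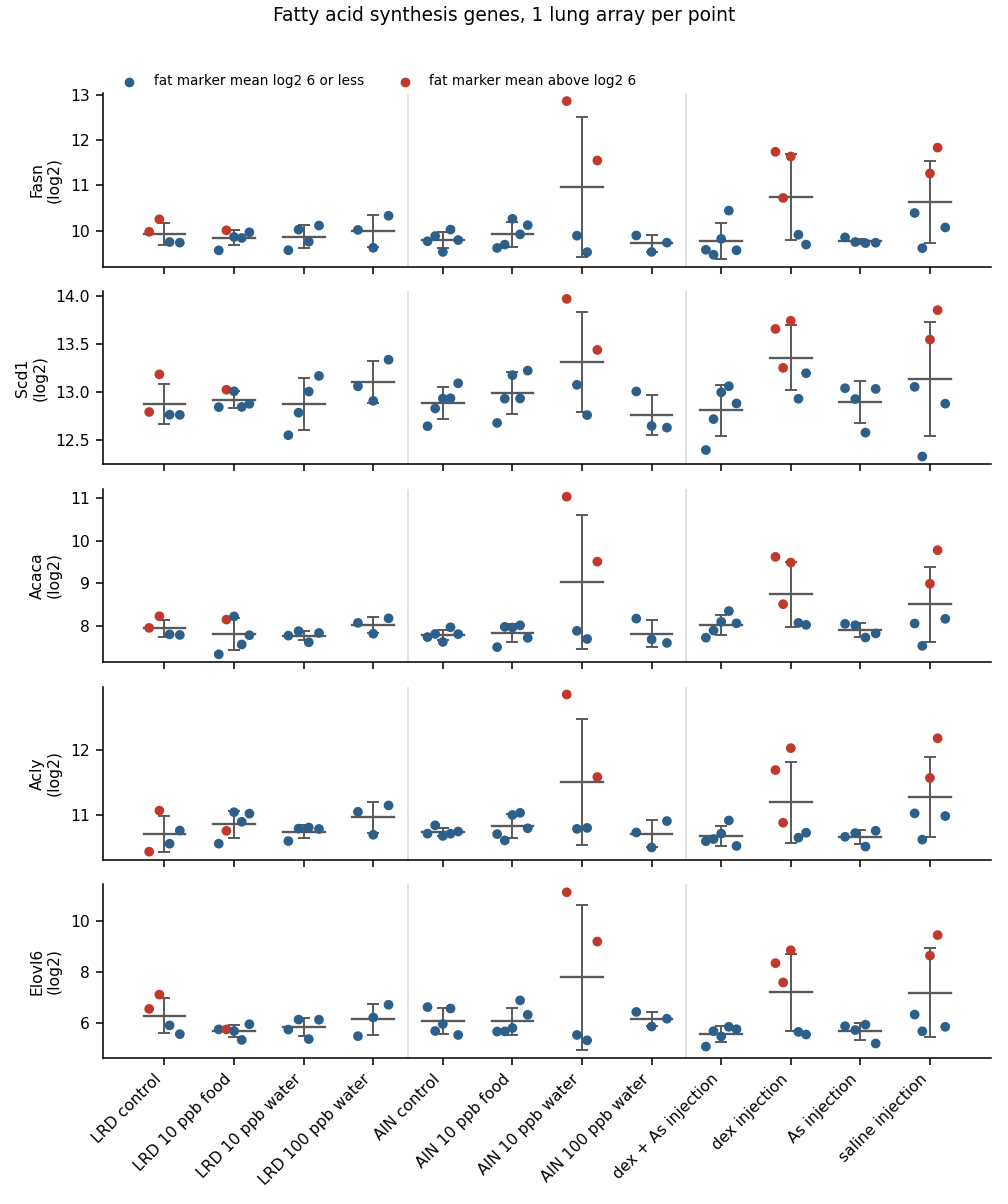
Log2 levels of Fasn, Scd1, Acaca, Acly and Elovl6 in 52 lungs (1 point per mouse) by group, with the group mean (horizontal line) and SD (bar); dex is dexamethasone and As is arsenite. Red points are the 10 lungs with a fat marker mean above log2 6, and the spread of the AIN 10 ppb water, dexamethasone and saline groups lies in red points, such as Fasn at 12.86 in AIN 10 ppb water replicate A.

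Within groups, the synthesis genes moved together. Deviations from the group means correlated between Fasn and Acaca at r = 0.95 (Spearman's rho 0.85), between Fasn and Acly at r = 0.93 and between Fasn and Elovl6 at r = 0.92, over 52 mice that share arrays and tissue make-up. Inside single array batches, the first of these ran from 0.90 to 0.98. Over the 42 lungs low in fat markers the pair Fasn and Acaca stood at r = 0.65, and Fasn and Acly at r = 0.72. Against the fat marker mean the deviations of the 5 synthesis genes gave r from 0.71 (Scd1) to 0.86 (Elovl6), with 0.60 and 0.81 for these genes without the 2 lungs farthest out in fat markers. Cpt1a ran the other way: its r with the fat marker mean was -0.51, and -0.52 without the 2 farthest lungs. It read 8.55 to 9.44 in the 10 lungs high in fat markers, with a median of 8.89, and 8.64 to 9.75 in the other 42, with a median of 9.24. For Angptl4 the corresponding r was -0.08 and for Cd36 -0.20. The part of fat tissue in each of these levels was not tested.

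**Figure D2:**
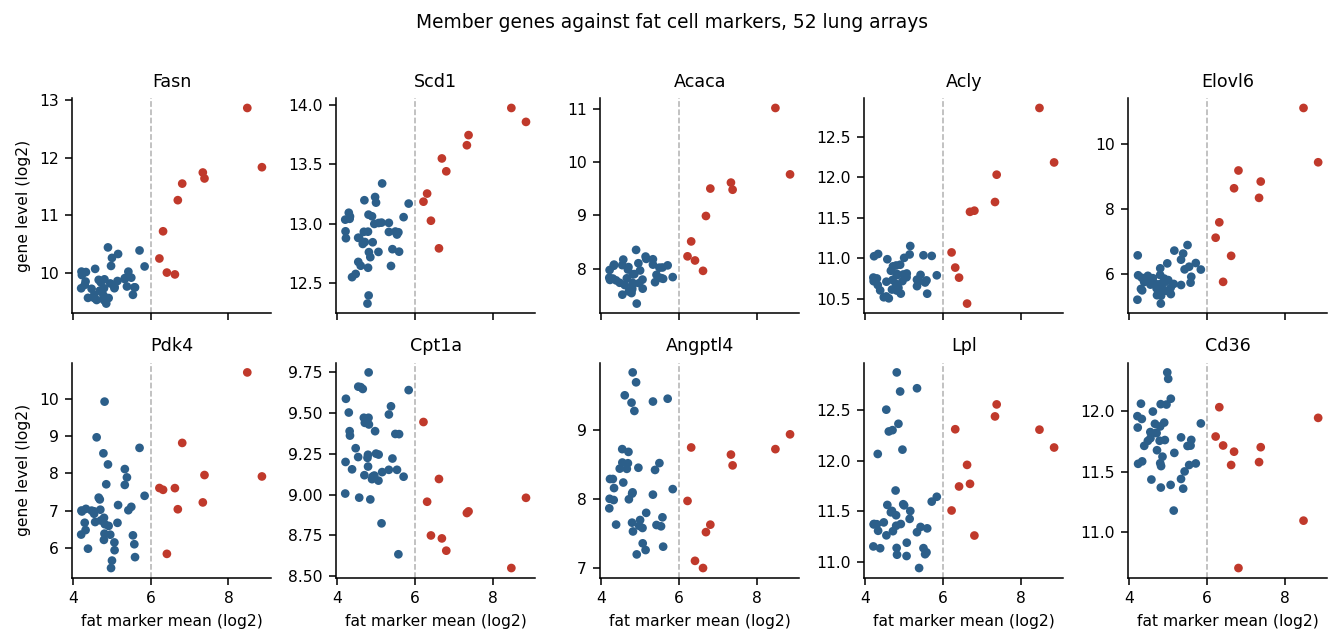
Log2 level of each of the 10 genes (vertical axes) against the mean log2 level of 8 fat cell markers (horizontal axes) in 52 lungs, with a dashed line at 6 and the 10 lungs beyond it in red. Fasn, Scd1, Acaca, Acly and Elovl6 climb to the right of the line, Cpt1a is lowest at 8.55 in a red lung, and Angptl4 and Lpl reach their highest values, 9.83 and 12.88, left of the line.

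Long exposure to As was the question for 6 of the comparisons, and none of the 10 genes passed the test in any of them. With limma over all 45037 probe sets (adjusted p under 0.05), 0 of 10 genes and 0.0% of probe sets passed in any of the 3 exposures on AIN or of the 3 on LRD. At an unadjusted p under 0.05, 7 of the 10 genes and 6196 probe sets passed at 10 ppb in water on AIN, and none of the 10 in the 5 other comparisons. The estimates at 10 ppb in water on AIN were +1.71 for Elovl6, +1.24 for Acaca, +1.16 for Fasn, +1.11 for Pdk4 and +0.77 for Acly, with adjusted p from limma of 0.191 to 0.428. These rest on replicates A and E. Elovl6 read 11.12, 5.55, 5.34 and 9.19 in the exposed mice (replicates A, C, D and E), against 6.64, 5.71, 5.98, 6.58 and 5.55 in control mice. Acaca read 11.03, 7.89, 7.70 and 9.51 in exposed mice, against 7.74, 7.82, 7.63, 7.97 and 7.81 in control mice. The other exposed pair lay below or within the control range for both genes. Without the 2 mice the changes were -0.65 for Elovl6, -0.09 for Fasn, -0.52 for Pdk4 and +0.06 for Acly, and Acaca was level at -0.00. Their fat marker means were 8.48 and 6.81, against 4.23 to 5.39 in control mice, replicate A also read 9.80 for skeletal muscle markers and replicate E 10.22 for thymus markers, and the part of these tissues was not tested. Leaving out exposed replicate C instead took the count called to 5 (Fasn, Acaca, Acly and Elovl6 higher, Cd36 lower), and leaving out replicate D took it to 3. The share of all probe sets called in those 2 fits is not given here, so these counts are not read as a result about the 10 genes.

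At 100 ppb in water on AIN the largest estimates were +0.79 for Pdk4 (95% interval -0.56 to 2.15) and +0.39 for Angptl4 (-0.35 to 1.12). Both were raised by 1 mouse, replicate C. Pdk4 read 7.69, 8.96 and 6.80 in the exposed mice (replicates A, C and D), against 6.21 to 7.89 in control mice. Angptl4 was 9.50 in that replicate C and 8.06 and 8.08 in the other exposed mice, against 7.66 to 8.43 in control mice. Without replicate C, Pdk4 stood at +0.22, Angptl4 at -0.09 and Lpl, estimated at +0.32 with that mouse, at -0.00. In food on AIN the genes lay between -0.53 (Pdk4) and +0.17 (Cd36) of the control mice, and Cd36, the uptake protein, read 11.71 to 12.32 in fed mice against 11.36 to 12.06 in control mice. On the LRD diet no estimate passed 0.59 in size, the limits being -0.59 for Elovl6 at 10 ppb in food and +0.39 for Angptl4 at 100 ppb in water. The interval of the change was narrow for Cpt1a, -0.34 to 0.35 at 10 ppb in food on AIN and -0.45 to 0.38 at 100 ppb in water on LRD. It was wide for Elovl6, -1.81 to 1.52 at 100 ppb in water on LRD. The difference of the As effect between diets was tested as an interaction, with 0 of 10 genes called at each exposure and 0.0% of probe sets called. At 10 ppb in water it was estimated at -2.15 for Elovl6 and -1.40 for Acaca (limma adjusted p = 0.419 and 0.365), and without AIN replicates A and E at +0.21 for Elovl6.

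The 2 diets differ in kind, AIN-76A being a purified diet rich in sucrose and LRD-5001 a grain-based chow. All 10 genes had lower estimates on LRD than on AIN over the 4 exposures, and none passed the test, against 0.153% of all probe sets called in either direction and 0.142% called higher. The median of the 10 was -0.16, beside 0.00 over all probe sets. Angptl4, the inhibitor of lipoprotein lipase, came nearest with a change of -0.57 (SE 0.18, limma adjusted p = 0.529). Its level averaged 7.64 over the LRD groups and 8.22 over the AIN groups, and 1 of 16 LRD mice lay above the AIN mean. In LRD control mice Angptl4 read 7.00, 7.97, 7.31 and 7.58, against 8.42, 8.43, 7.66, 8.00 and 8.29 in AIN control mice, so that 3 of 4 LRD mice lay below every AIN mouse. It was lower on LRD in each of the 4 exposures (-0.69 in control mice, -0.60 with As in food, and -0.31 and -0.69 with As in water at 10 and 100 ppb) and in all 5 array batches, by 0.11 to 1.00. Without AIN 10 ppb water replicates A and E the change was -0.53, and without the 10 lungs high in fat markers -0.51, in both cases not called (limma adjusted p = 0.97 and 1.0). Pdk4 had a change of -0.68 (SE 0.33, limma adjusted p = 1.0), which was -0.27 without replicates A and E. The synthesis genes turned from -0.53 to +0.06 for Elovl6 and from -0.19 to +0.12 for Fasn when those 2 mice were left out. Within single exposures 0 of 10 genes were called, and 0.0133% of probe sets were called in control mice, 0.0178% with As in food, and 0.124% and 0.0111% with As in water at 10 and 100 ppb. At 10 ppb in water this count depended on the fit. Of 18 alternative fits Fasn and Acaca were called in 2 each, and Acly, Elovl6, Pdk4 and Cd36 in 1 each. The share of all probe sets called in those fits is not given here.

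Of the other genes of fatty acid synthesis, 1 of 20 measured passed in the diet comparison. It was Fads2, the desaturase that begins the making of long polyunsaturated fatty acids from plant oils, which rose on LRD by 0.51 (SE 0.08, limma adjusted p = 0.000312). Fads2 averaged 7.85 on LRD and 7.36 on AIN, and reached 7.97 to 8.32 at 100 ppb in water on LRD, against 7.04 to 7.55 on AIN, with no overlap there. Fads2 kept its call without AIN 10 ppb water replicates A and E (0.45, adjusted p = 0.00404), and without the 10 lungs high in fat markers it stood at 0.43 (adjusted p = 0.0575). Those 10 lungs include LRD control replicates A and C and LRD 10 ppb food replicate C. Of 21 other oxidation genes, 17 uptake and lipolysis genes, 15 regulators and 7 pyruvate dehydrogenase kinases and phosphatases measured, 0 passed. List medians for diet were -0.10 for synthesis and -0.11 for oxidation, with 14 of 20 and 19 of 21 genes lower on LRD, beside 0.00 over all probe sets. These directions rest on AIN 10 ppb water replicates A and E. Without those 2 mice the medians were 0.09 for synthesis and 0.03 for oxidation, with 14 of 20 and 14 of 21 genes higher on LRD. In control mice alone they were 0.09 and 0.10, with 15 of 20 and 16 of 21 genes higher, and the 8 fat cell markers were all higher on LRD there too, with a median of 1.12. The lists hold genes fat tissue also expresses, and brown fat markers reached 7.51 on LRD against 11.37 on AIN, and their part was not tested.

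Dexamethasone is a synthetic glucocorticoid, and among the 10 genes it was Lpl that stood apart in the mice that received it. Lpl read 12.88, 12.37, 12.11, 12.69 and 12.51 after dexamethasone and arsenite (replicates A, C, D, E and F), against 12.07, 11.09, 11.39 and 11.15 after arsenite alone. These groups did not overlap. The change was 1.08 (SE 0.21, 95% interval 0.66 to 1.50, limma adjusted p = 0.00191), or 2.12-fold, in a comparison where 1 of 10 genes and 0.624% of all probe sets were called higher, with 1.53% called in either direction. Against saline, dexamethasone and arsenite gave 0.76 (SE 0.20, limma adjusted p = 0.0349), with 1 of 10 genes called, 0.657% of probe sets called higher and 1.26% called in either direction. This call was lost in 8 of 10 fits that left out 1 mouse of these groups (adjusted p = 0.0523 to 0.119), with the replicate letter as a block (0.0706), with all 55 arrays and with only the groups compared. Saline mice read 11.60, 11.71, 11.77, 12.13 and 11.56, so that saline replicate E lay just above dexamethasone and arsenite replicate D. After dexamethasone alone Lpl read 12.44, 12.31, 12.56, 12.72 and 12.30, with no overlap with saline. That change, 0.71 (SE 0.20, 95% interval 0.32 to 1.11), missed the threshold (limma adjusted p = 0.0573), 0 of 10 genes were called, and 0.422% of probe sets were called higher and 1.14% in either direction.

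A second probe set of Lpl moved the same way. It was higher by 1.35 for dexamethasone and arsenite against arsenite (limma adjusted p = 0.00206) and by 0.95 against saline (adjusted p = 0.0358), and its value for dexamethasone against saline was 0.85 (adjusted p = 0.0814). Over the 10 mice that received dexamethasone Lpl ran from 12.11 to 12.88, and 8 of them lay above all 42 other lungs. Only 3 of the other 42 passed 12.11. The order of the group means ran from 11.30 ± 0.21 (SD, n = 3) at 100 ppb in water on LRD to 11.76 ± 0.23 (n = 5) after saline, and then 12.47 ± 0.18 (n = 5) after dexamethasone and 12.51 ± 0.29 (n = 5) after dexamethasone and arsenite. Neighbours in an order of means lie close by construction, so this order does not show the groups without dexamethasone to be alike. Saline mice did not overlap AIN control mice for Lpl, as given below. Beside these values, fat marker means were 4.55 to 4.96 after dexamethasone and arsenite and 4.22 to 5.58 after arsenite, while they ran from 4.71 to 7.38 after dexamethasone and from 4.58 to 8.86 after saline. Heart muscle, which also expresses Lpl, gave marker means of 7.77 to 9.37 after dexamethasone and arsenite, 8.13 to 11.08 after dexamethasone, 6.61 to 10.27 after arsenite and 7.09 to 10.43 after saline. Without the 10 lungs high in fat markers, Lpl stood at 1.08 for dexamethasone and arsenite against arsenite (adjusted p = 0.000432), 0.89 against saline (adjusted p = 0.0141) and 0.89 for dexamethasone against saline (adjusted p = 0.0709). That fit lacks dexamethasone replicates A, B and C and saline replicates D and E. Within array batches, each holding 1 or 2 mice a group, the difference from arsenite was 0.44 to 1.27 in 3 of 3, and from saline -0.02 to 1.31 for the combined injection, higher in 3 of 4, and 0.18 to 1.00 for dexamethasone, higher in 3 of 3.

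**Figure D3:**
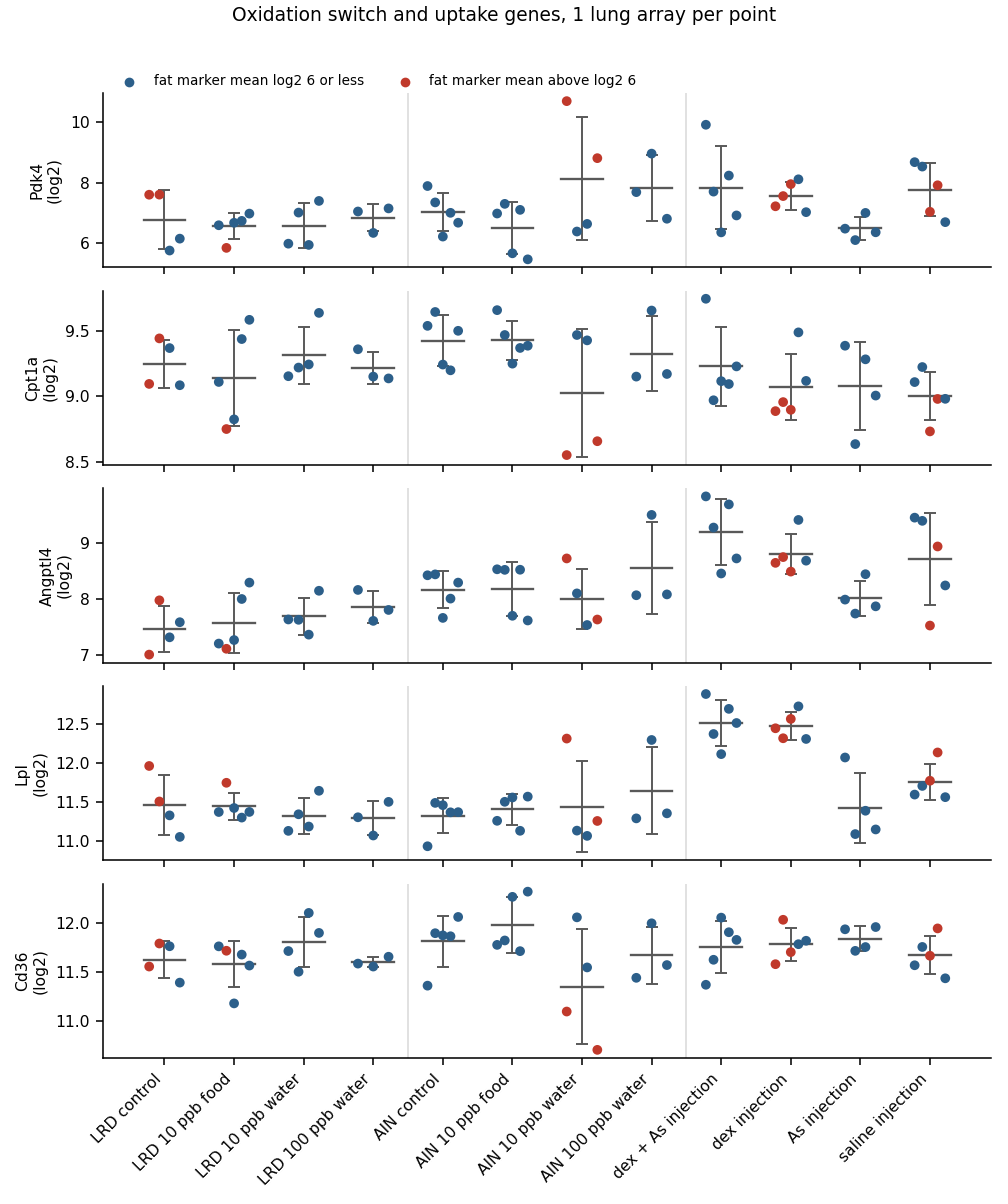
Log2 levels of Pdk4, Cpt1a, Angptl4, Lpl and Cd36 in 52 lungs (1 point per mouse) by group, with the group mean (horizontal line) and SD (bar); red points are lungs with a fat marker mean above log2 6, dex is dexamethasone and As is arsenite. Lpl lies at 12.11 to 12.88 in the 2 groups with dexamethasone, and Angptl4 is lowest in the LRD groups.

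Angptl4 and Pdk4 also had higher estimates when dexamethasone was added to arsenite, without passing the threshold. Angptl4 read 9.83, 9.27, 8.45, 9.69 and 8.72 after dexamethasone and arsenite, against 7.98, 7.73, 8.44 and 7.86 after arsenite, groups that did not overlap. The difference of 1.19 (SE 0.33, 95% interval 0.52 to 1.86) had a limma adjusted p of 0.0544, and 0.0403 without AIN 10 ppb water replicates A and E. It was above 0 in 3 of 3 array batches. Pdk4 read 9.92, 7.70, 6.35, 8.23 and 6.91 after dexamethasone and arsenite, against 6.47, 6.10, 7.00 and 6.36 after arsenite, a difference of 1.34 (SE 0.62, limma adjusted p = 0.416) with overlap. Dexamethasone alone left both near saline. Angptl4 averaged 8.79 after dexamethasone and 8.71 after saline, and Pdk4 7.57 and 7.77. The saline mice varied widely in both genes: replicates B and C read 9.45 and 9.39 for Angptl4 and 8.68 and 8.53 for Pdk4, and replicate D read 7.52 and 7.03. The remaining 7 genes lay between -0.12 (Elovl6) and 0.15 (Cpt1a) in this comparison. The other probe set of Angptl4 is dim, averaging 2.81, and stood at 0.48 (adjusted p = 0.152). No other second probe set of a member was called in the diet or dexamethasone comparisons.

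Within groups Cpt1a and Cd36 had the smallest SD of the 10 genes over 52 lungs, 0.28 and 0.27. Over the 42 lungs low in fat markers Acly (0.160), Acaca (0.224) and Scd1 (0.225) had a smaller SD than Cpt1a and Cd36 (both 0.243). Cpt1a, the gate of mitochondrial oxidation, had group means of 9.01 after saline to 9.43 at 10 ppb in food on AIN. Its change was 0.06 for dexamethasone against saline (95% interval -0.28 to 0.41) and 0.15 for dexamethasone and arsenite against arsenite. Cd36 had group means of 11.35 at 10 ppb in water on AIN, where replicates A and E read 11.10 and 10.71, to 11.98 at 10 ppb in food on AIN. Its change was 0.11 for dexamethasone against saline (95% interval -0.23 to 0.45). Scd1 and Acly, both abundant, had changes of 0.22 and -0.08 in that comparison, and of -0.32 and -0.60 for dexamethasone and arsenite against saline (limma adjusted p = 0.679 and 0.362). Fat marker means were 4.55 to 4.96 after dexamethasone and arsenite and 4.58 to 8.86 after saline, and their part was not tested.

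Arsenite alone against saline had 8 of 10 genes lower in estimate and none called, with 0.0% of probe sets called. The estimates were -1.50 for Elovl6, -1.29 for Pdk4, -0.87 for Fasn, -0.70 for Angptl4 and -0.61 for Acly, with limma adjusted p of 0.761 to 0.796, and 5 genes and 2811 probe sets were under an unadjusted p of 0.05. For Elovl6 the arsenite mice read 5.89, 5.74, 5.95 and 5.22, against 6.35, 5.70, 8.65, 9.45 and 5.87 in saline mice, in which replicates D and E stand alone. Fat marker means were 4.22 to 5.58 after arsenite and 4.58 to 8.86 after saline, with 8 of 8 markers lower in estimate. Pdk4 read 6.47, 6.10, 7.00 and 6.36 after arsenite, against 8.68, 8.53, 7.03, 7.91 and 6.69 after saline, with 0 of 4 arsenite mice above the saline mean. Without the 10 lungs high in fat markers Pdk4 was at -1.49 and Angptl4 at -1.02 (limma adjusted p = 0.374 and 0.35). Saline replicates D and E are among those 10 lungs. The interaction of dexamethasone and arsenite was estimated at 1.54 for Pdk4 and 1.10 for Angptl4, with 0 of 10 genes and 0.0% of probe sets called.

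Saline mice were set against AIN control mice, which were not injected, and 0 of 10 genes were called against 0.00222% of probe sets. The control mice belonged to the 5-week exposures and the saline mice to the 8-hour injections. Injection and other differences between these series cannot be told apart. Of the 10, 8 were higher in estimate, led by Elovl6 at 1.11, Fasn at 0.83 and Pdk4 at 0.75, and Cpt1a and Cd36 were lower, at -0.42 and -0.14. Lpl read 11.56 to 12.13 in saline mice, against 10.94 to 11.49 in control mice, and these groups did not overlap (change 0.43, limma adjusted p = 0.999). Cpt1a read 8.73 to 9.22 in saline mice, against 9.20 to 9.64 in control mice. Fat marker means were 4.58 to 8.86 in saline mice and 4.23 to 5.39 in control mice, and 4 of the 10 genes and 1841 probe sets were under an unadjusted p of 0.05.

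**Figure D4:**
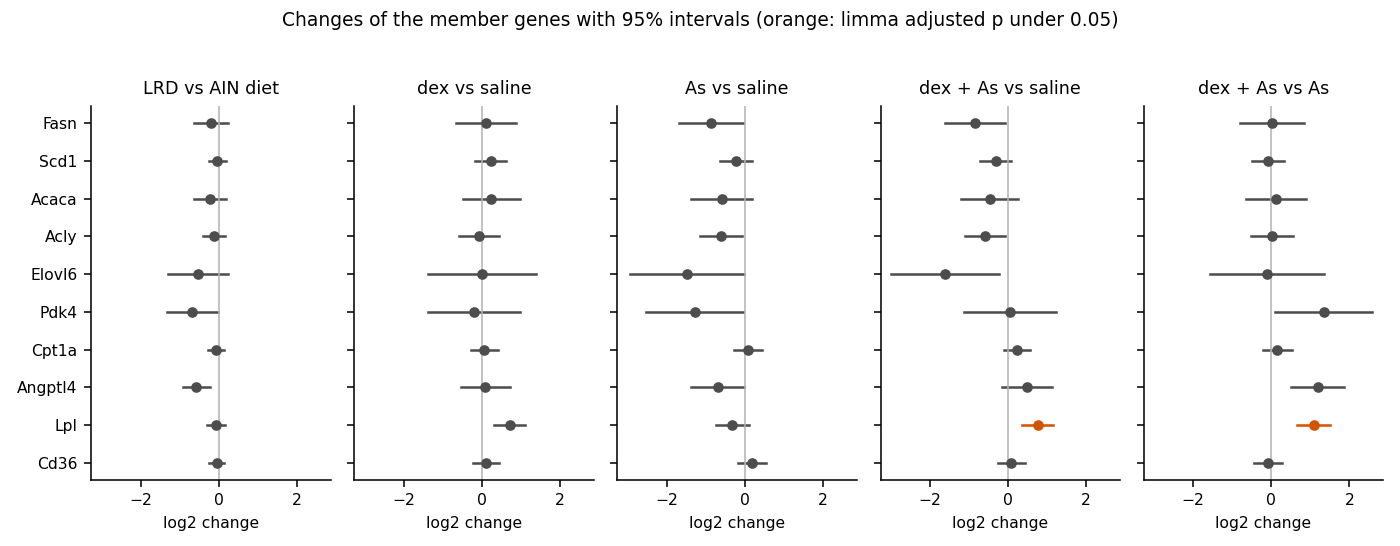
Log2 change of each of the 10 genes in 5 comparisons (points) with 95% intervals (lines), orange where the limma adjusted p over all probe sets was under 0.05; dex is dexamethasone and As is arsenite. The 2 orange points are Lpl for dexamethasone and arsenite against saline (0.76) and against arsenite (1.08).

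The label of the dexamethasone groups was set against 5 genes known to respond to glucocorticoids, and none of them was called. Fkbp5, which restrains the glucocorticoid receptor, read 8.15 to 9.48 after dexamethasone and 7.70 to 10.04 after saline, and 7.06 to 7.83 in AIN control mice. Its changes were 0.07 for dexamethasone against saline (limma adjusted p = 0.998) and 1.54 for dexamethasone and arsenite against arsenite (adjusted p = 0.169). For Tsc22d3, Per1, Zbtb16 and Klf9 the changes for dexamethasone against saline were -0.17, -0.06, -0.69 and 0.24, with adjusted p of 0.787 to 0.995. Group medians of all 5 genes were higher after dexamethasone and arsenite than after arsenite. They were 9.11 against 7.58 for Fkbp5, 10.79 against 10.28 for Tsc22d3 and 8.31 against 7.76 for Per1. For Zbtb16 they were 8.53 against 7.05, and for Klf9 12.59 against 12.43. The ranges of these groups overlapped for all 5 genes, with 7.59 to 10.87 against 7.18 to 8.62 for Fkbp5. Set against saline, the median of Zbtb16 was lower after dexamethasone and arsenite (8.53 against 9.335), and those of the other genes were higher. No difference at 8 hours was called for these 5 genes, while 515 of 45037 probe sets were called between dexamethasone and saline.

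Of the lists of related genes, 1 gene changed with dexamethasone. Pdk3, another kinase that inhibits pyruvate dehydrogenase, rose in both groups that received it. Pdk3 read 8.22, 8.27, 8.14, 8.36 and 8.24 after dexamethasone and arsenite and 8.07, 8.12, 8.07, 8.25 and 8.33 after dexamethasone, against 7.73, 7.89, 7.81 and 7.75 after arsenite and 8.03, 7.74, 7.80, 7.74 and 7.91 after saline. Neither dexamethasone group overlapped the arsenite or the saline mice. The change was 0.45 for dexamethasone and arsenite against arsenite (SE 0.09, limma adjusted p = 0.00326), 0.40 against saline (adjusted p = 0.00682) and 0.32 for dexamethasone against saline (adjusted p = 0.0443). The call for dexamethasone against saline held in 8 of 20 alternatives, and was lost with array batch as a block (adjusted p = 0.108). Without the 10 lungs high in fat markers both calls against saline were lost, at 0.35 for dexamethasone and arsenite (adjusted p = 0.0589) and 0.40 for dexamethasone (adjusted p = 0.105), while that against arsenite stayed (adjusted p = 0.00221). That fit lacks dexamethasone replicates A, B and C and saline replicates D and E. The SE of Pdk3 for dexamethasone against saline was 0.118 there, against 0.085 with these mice. Pdk3 was 1 of 7 kinases and phosphatases measured, where 0.624%, 0.657% and 0.422% of all probe sets were called higher in these 3 comparisons. Of 20 synthesis, 21 oxidation and 17 uptake and lipolysis genes and 15 regulators, 0 passed in any of the 3 comparisons. In the comparison of dexamethasone with saline the list medians were 0.03 for synthesis, 0.02 for oxidation, -0.01 for uptake and lipolysis and 0.01 for regulators, beside 0.00 over all probe sets. For 10 ppb in water on AIN the synthesis list had a median of 0.39 and the oxidation list 0.50, with 19 of 21 oxidation genes higher, beside -0.00 over all probe sets. The largest synthesis gene there was Thrsp, a gene tied to fat synthesis, at 7.09 to 12.95 in exposed mice against 6.10 to 8.00 in control mice (change 2.65, limma adjusted p = 0.287). Fat cell markers had a median of 1.45 (8 of 8 higher) and brown fat markers one of 2.04 (5 of 5 higher) in the same comparison. Without replicates A and E the medians were 0.00 for synthesis and -0.02 for oxidation, with 6 of 21 oxidation genes higher, beside -0.03 over all probe sets, and Thrsp stood at 0.10.

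Pdk4 and Angptl4 followed each other from mouse to mouse. Their deviations from the group means correlated at r = 0.70 (Spearman's rho 0.74) over 52 lungs, at 0.68 without the 2 farthest lungs, and at 0.60 to 0.83 within batches. Over the 42 lungs low in fat markers the value was 0.85 (0.67 to 0.95 within batches). Over those 42 lungs Cpt1a had r = 0.59 with Pdk4 and 0.68 with Angptl4, against 0.13 and 0.54 over 52 lungs. Lungs high for both included dexamethasone and arsenite replicate A (9.92 for Pdk4, 9.83 for Angptl4) and AIN 100 ppb water replicate C (8.96 and 9.50). AIN 10 ppb water replicates A and E broke the pattern, with 10.70 and 8.81 for Pdk4 beside 8.72 and 7.63 for Angptl4. The deviations of Fkbp5 gave r = 0.50 with Pdk4, 0.48 with Angptl4 and 0.41 with Lpl over the 52 lungs, and within batches -0.06 to 0.77, 0.24 to 0.76 and -0.09 to 0.80. Over the 42 lungs low in fat markers these were 0.59, 0.65 and 0.70. These values share arrays, and Fkbp5 was chosen for another purpose.

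**Figure D5:**
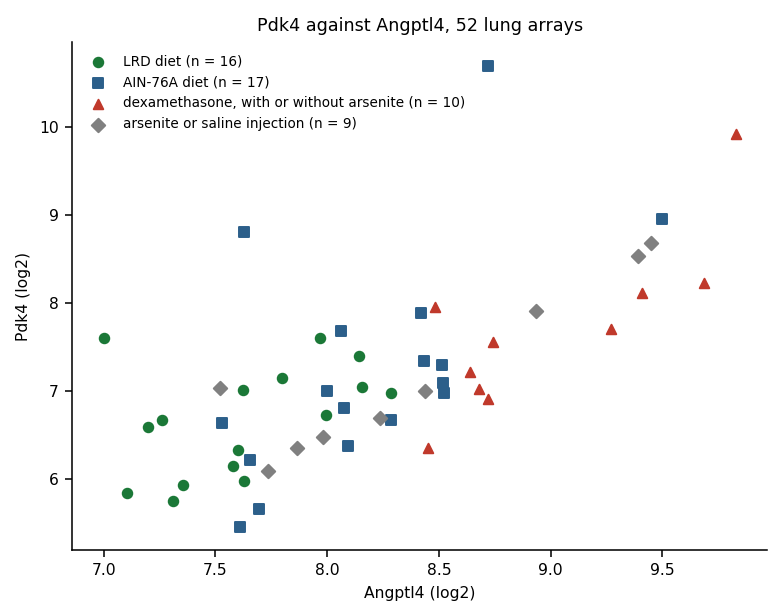
Pdk4 (vertical axis, log2) against Angptl4 (horizontal axis, log2) in 52 lungs, marked by diet or injection. LRD lungs reach no more than 8.29 for Angptl4, and the 2 AIN squares that lie well above other lungs of like Angptl4 level are AIN 10 ppb water replicates A and E at 10.70 and 8.81 for Pdk4.

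Genes whose 12 group means ran most like those of a member were sought among 11208 genes, without AIN 10 ppb water replicates A and E. The group means still hold 8 lungs high in fat markers, and over these 12 groups the fat marker mean ran with Fasn at r = 0.87, with Elovl6 at 0.86, with Acaca at 0.81, with Acly at 0.75 and with Scd1 at 0.68. Without the 10 lungs high in fat markers the group means of Fasn spanned only 9.71 to 10.03. For Fasn the nearest was Me1, malic enzyme, which supplies NADPH for fatty acid synthesis (r = 0.99), followed by Acacb and Agpat2 (both 0.96). Me1 was also among the nearest 3 for Scd1, Acaca and Acly, with Gpd1, Acacb, Agpat2 and the citrate carrier Slc25a1 filling the other places. Elovl6 lay nearest to Echdc1, Gpd1 and Slc2a4, the insulin-responsive glucose transporter (0.93 to 0.94). For Lpl the nearest were Igfbp6 (0.99), Sult1a1 (0.98) and Pmvk (0.98). Angptl4 came with Myrip and Fgfr3 (0.97) and Tnfrsf21, and Pdk4 with Spsb1, Zcchc24 and Mknk2 (0.94 to 0.95). Cpt1a and Cd36, whose group means spanned 0.44 and 0.40, had nearest values of 0.86 (Prickle2) and 0.92 (Zfp574).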

How the data were processed

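Lung RNA was hybridised by the authors to Affymetrix mouse genome arrays, 55 in all. The deposited file holds log2 levels, which the authors computed by robust multiarray averaging (RMA). Its version and the arrays normalized together are not given in the sources used here. Of 45101 probe sets, 64 controls were left out. Gene names came from GEO's platform annotation, where 34945 probe sets carry 1 symbol and 932 several. Groups followed the sample labels, and 52 arrays entered 1 limma 3.58.1 model (R 4.3.3) with 12 group means, two-sided, with Benjamini-Hochberg adjustment over 45037 probe sets and a threshold of 0.05. Intervals are 95% and changes are log2. The number of mice, 3 to 5 a group, limits the precision. On simulated data the fit was tested and recovered planted changes. Tables used Python 3.11.15, pandas 2.3.3 and scipy 1.17.1. The members, gene lists, motifs and tests were chosen with earlier results of these data known. All 10 members are named; of each list, up to 4 genes per direction that passed in the diet or dexamethasone comparisons; 3 genes most like each member; and the glucocorticoid genes. Thrsp, Adipoq and Fkbp5 outside the dexamethasone comparison were singled out after their values were seen. Array batches are the 5 sets of 11 arrays named in the raw array files. Replicate letters do not pair mice: same-letter mice of compared groups correlated at a median of 0.01 over 36 pairs, against 0.00 over 187 other pairs. Some genes of the lists were not analysed here. Results were recomputed with dim probe sets dropped (log2 5 in at least 4 arrays kept), median centring, quantile normalization, array weights, batch or replicate letter as a block, the compared groups alone, all 55 arrays, 1 array fewer, and no AIN 10 ppb water replicates A and E; leaving out the 10 lungs high in fat markers, and the gene lists without either set of lungs, were added after seeing the data.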

Additional observations from a re-analysis of the deposited data

Results flagged for a closer look

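In 7 of 100 sets of 4 or 5 mice, 1 mouse lay far from the rest of its group for a member gene, where chance alone flags about 1 in 20 sets. Lpl stood apart in AIN 10 ppb water replicate A at 12.31, against 11.07 to 11.26 in the other mice, with a fat marker mean of 8.48. It was also apart in LRD 10 ppb food replicate C at 11.75, against 11.30 to 11.43, with a fat marker mean of 6.42. AIN control replicate A was low for both Lpl (10.94, against 11.37 to 11.49) and Cd36 (11.36, against 11.86 to 12.06), with a fat marker mean of 5.39. Scd1 was 13.19 in LRD control replicate C, against 12.76 to 12.79, with a fat marker mean of 6.23. Acly was 10.60 in LRD 10 ppb water replicate A, against 10.79 to 10.81. Angptl4 was 9.41 in dexamethasone replicate E, against 8.48 to 8.74.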

How the results depend on the processing

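For dexamethasone against saline, where 0 members were called, the count was 1 (Lpl) without AIN 10 ppb water replicates A and E, with array batch as a block, with array weights, with quantile normalization, with a filter on dim probe sets and with only the groups compared. For dexamethasone and arsenite against saline, where 1 was called (Lpl), the count was 0 with all 55 arrays, with the replicate block and with only the groups compared. For dexamethasone and arsenite against arsenite, where 1 was called (Lpl), the count was 2 (with Angptl4) without AIN 10 ppb water replicates A and E, with all 55 arrays, with the replicate block, with quantile normalization, with a filter on dim probe sets and without the 10 lungs high in fat markers, and 0 with only the groups compared. Leaving out 1 mouse at a time gave counts of 0 to 1 for dexamethasone against saline (1 without saline replicate E), 0 to 1 for dexamethasone and arsenite against saline, 1 to 2 for dexamethasone and arsenite against arsenite and 0 to 5 for AIN 10 ppb water against AIN control. For Lpl after dexamethasone and arsenite against saline the call ended without saline replicate B, C, D or F or without dexamethasone and arsenite replicate A, C, E or F, with changes of 0.66 to 0.79 and limma adjusted p of 0.0523 to 0.119. In 295 further recomputations the count of members called did not change, and no called change turned its sign. Under the replicate block Angptl4 had an adjusted p of 0.00985 against arsenite and Lpl one of 0.0706 against saline. Over all probe sets 515 were called for dexamethasone against saline, 210 with only the groups compared, 47 with all 55 arrays and 1515 with array weights; for dexamethasone and arsenite against saline 567, 73, 66 and 1414; against arsenite 687, 189, 243 and 1185, with 1062 under array batch as a block; for diet 69, and 35 with all 55 arrays and 38 without the 10 lungs high in fat markers. For the dexamethasone comparisons, in the same order, 747, 867 and 941 were called without AIN 10 ppb water replicates A and E. The replicate block gave 513, 510 and 671, and quantile normalization 539, 615 and 708. The filter gave 650, 716 and 846 of 21265. Array batch as a block gave 612 for dexamethasone against saline. Without the 10 lungs high in fat markers, 1094 were called against arsenite. Counts over all probe sets for fits without 1 mouse are not given here. The causes were not tested. Groups of 3 to 5 mice and the wide spread of Pdk4 and Elovl6 between lungs limit what changes could be called.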

Other observations

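Fabp1, a fatty acid binding protein of liver and gut that is listed here among markers of alveolar macrophages, was lower in lungs that received dexamethasone. Fabp1 averaged 6.55 ± 0.79 after dexamethasone and arsenite (SD, n = 5) and 6.65 ± 0.59 after dexamethasone (n = 5), against 8.34 ± 0.33 after arsenite (n = 4) and 7.96 ± 0.27 after saline (n = 5), and the dexamethasone groups did not overlap the others. The limma changes were -1.80 for dexamethasone and arsenite against arsenite (adjusted p = 0.00458), -1.41 against saline (adjusted p = 0.0275) and -1.30 for dexamethasone against saline (adjusted p = 0.0524). Over all 45037 probe sets 406, 271 and 325 were called lower in these comparisons, in the same order. Fabp1 was named after its values were seen, and whether its calls hold in other fits is not given here. Of the 6 markers measured in its list, 5 were higher in estimate for dexamethasone and arsenite against saline and only Fabp1 was lower, with a list median of 0.10. For dexamethasone and arsenite against arsenite 3 of the 6 were higher and 3 lower. For dexamethasone against saline 4 were higher and 2 lower.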
